A study of Mus musculus with 4 samples.

Results

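*Ly6a*, *Ly6c1*, *Ly6c2*, *Ly6e* and *Cd59a*, 5 genes of the Ly6 family of small surface proteins, were followed in single endothelial cells of the mouse ear dermis. They were chosen by name, and they are 5 of the 46517 genes in the count tables. Cells came from ears of adult female C57Bl/6 mice of 12 to 26 weeks, pooled from 6 animals, with no genetic change or treatment in any sample. Strain and age are those of the labels, and the study's methods name the strain C57BL/6 J and state a younger age range. Live cells that stained for CD31 and not for CD45 or Lyve1 were sorted into 384-well plates, with 2 plates (A and B) for each of 2 replicates, and each well was read by Smart-seq2. The labels give all 4 plates the same cell type, so comparisons were made between classes of wells that were set by other genes, and no member of the family was used to set a class.

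Ly6 proteins share a compact 3-finger fold held by disulphide bonds, and most are attached to the outer face of the membrane by a glycosylphosphatidylinositol (GPI) anchor. *Ly6a* encodes Sca-1, widely used as a mark of mouse stem cells and also carried by many endothelial cells. *Ly6c1* and *Ly6c2* encode the closely related Ly6C antigens, known from monocytes and from endothelium, *Ly6e* encodes an interferon-inducible member, and *Cd59a* encodes an inhibitor of the membrane attack complex of complement.

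Of the 1536 wells, 701 were classed as blood vascular endothelial cells (BECs), for which 2 or more of the endothelial genes *Pecam1*, *Cdh5* and *Kdr* had to be read. Such wells also had to stay under 100 CPM (the count of a gene scaled to a common total per well) of the lymphatic genes *Prox1* and *Lyve1*, the leukocyte gene *Ptprc* and the pericyte genes *Pdgfrb* and *Kcnj8*. Clusters of these wells gave 122 artery-like wells (32 in replicate 1 and 90 in replicate 2), 163 capillary-like wells (130 and 33) and 243 vein-like wells (125 and 118), named because 11 of 13 artery, 9 of 11 capillary and 8 of 11 vein markers were raised in them, and 173 wells stayed unnamed. Levels given for BECs include the unnamed wells, whereas every fit used the 3 named classes. The unnamed cluster had 8 of 11 mural and 5 of 8 lymphatic markers raised. It held 122 of the 363 BEC wells of replicate 2. Summed markers in those 122 wells were 2752 CPM for lymphatic, 1824 CPM for fibroblast and 348 CPM for leukocyte genes. BEC levels of replicate 2 therefore include wells with marks of other cells. A further 124 wells were lymphatic-like (10 and 114), although the sort was against Lyve1 protein, and 460 were mural-mixed (407 and 53), with endothelial genes together with *Pdgfrb* or *Kcnj8* of pericytes. Median depth was 142086 to 182926 reads per well on the plates of replicate 1 and 40324 to 42540 on those of replicate 2. In replicate 1, every one of the 384 wells of both plates held reads of *Ly6a*, *Ly6c1* and *Ly6e*, the lymphatic-like wells included. A share of wells with a read therefore says little there, and whether reads passed between wells was not tested.

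The genes lie close together, apart from *Cd59a*. On mm10 with the GENCODE vM21 annotation, *Ly6e* (ENSMUSG00000022587) spans chr15:74955051-74959905 on the plus strand. *Ly6a* (ENSMUSG00000075602) follows at chr15:74994877-74998031, *Ly6c1* (ENSMUSG00000079018) at chr15:75044018-75048830 and *Ly6c2* (ENSMUSG00000022584) at chr15:75108158-75111970, all on the minus strand. *Cd59a* (ENSMUSG00000032679) spans chr2:104095801-104115354 on the plus strand. Counts cover exons only, and the exons add up to 3784, 1205, 1677, 2740 and 1811 bases in this order.

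Reads were 50 bases long, so the similarity of the paralogs bears on every value below. The coding sequences of *Ly6c1* and *Ly6c2*, of 393 bases each in their most similar transcripts, differed at 9 positions (97.7% identity). The first 90 coding bases hold 6 of these differences, shown 5′ to 3′ with differing bases in capitals.
Ly6c1: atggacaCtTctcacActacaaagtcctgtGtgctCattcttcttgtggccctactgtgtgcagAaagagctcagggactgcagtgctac
Ly6c2: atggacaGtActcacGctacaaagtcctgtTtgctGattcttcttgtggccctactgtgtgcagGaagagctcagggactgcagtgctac
The longest stretch without a difference ran for 188 coding bases. Its first 90 bases, coding positions 66 to 155 in both genes, show why a 50-base read from there cannot be assigned to either gene.
Both: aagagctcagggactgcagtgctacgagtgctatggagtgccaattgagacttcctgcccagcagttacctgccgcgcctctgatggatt

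Over all annotated transcripts, 32.8% of the 1764 distinct 50-base windows of *Ly6c1* were identical to a window of another gene. *Ly6c2* shared 379 of these windows and *Ly6a* 195. Of the 344 coding windows of *Ly6c2*, 162 (47.1%) occurred in *Ly6c1*, whereas 0 of the 353 coding windows of *Ly6a* did, so the windows that *Ly6a* and *Ly6c1* share lie outside the coding part. *Ly6a* shared 19% of 1297 windows, *Ly6c2* 14.5% of 2733 and *Cd59a* 3.87% of 1811, the latter with *Cd59b*. *Ly6e* shared 0 of 4184 windows and had none within 2 mismatches of a family member, so its counts do not depend on how such reads were treated. That treatment is not given in the sources used here, and counts of *Ly6c1*, *Ly6a* and *Ly6c2* are uncertain by this measure.

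**Figure D1:**
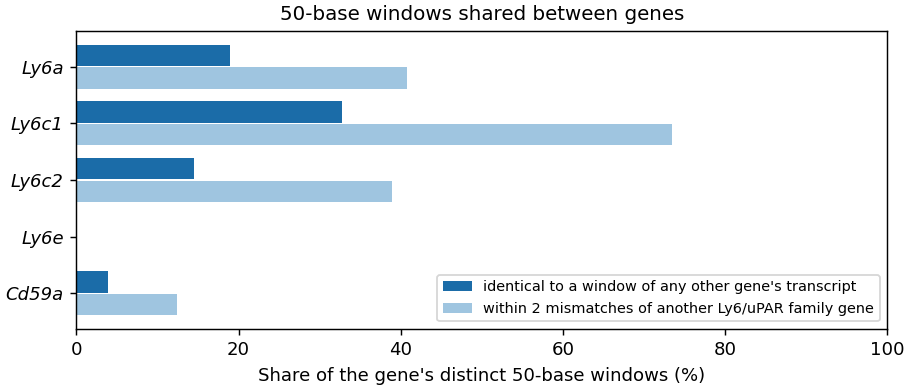
Share of the distinct 50-base windows of each gene's transcripts, in percent (horizontal axis), that were identical to a window of any other gene (dark bars) or within 2 mismatches of another gene of the Ly6 family (light bars). *Ly6c1* has the longest bars (32.8% and 73.5%) and *Ly6e* has none.

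*Ly6c1*, *Ly6e* and *Ly6a* were among the most abundant transcripts of dermal BECs, and *Cd59a* and *Ly6c2* were low. *Ly6c1* averaged 1840 ± 617 CPM per well (SD over replicates, n = 2), *Ly6e* 1654 ± 418 and *Ly6a* 1339 ± 356. By mean level, *Ly6c1* ranked 26 of 46517 genes in replicate 1 and 35 in replicate 2, *Ly6e* 34 and 37, and *Ly6a* 46 and 56. *Cd59a* averaged 57.0 ± 35.1 CPM and *Ly6c2* 29.1 ± 4.67 CPM.

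On the single plates, *Ly6c1* stood at 2042 and 2478 CPM in replicate 1 and at 1415 and 1394 CPM in replicate 2. *Ly6a* stood at 1467 and 1697 CPM against 1166 and 1014 CPM, and *Ly6e* at 1849 and 2037 CPM against 1326 and 1390 CPM. Both plates of replicate 1 were above both plates of replicate 2 for each of the 3 genes. *Cd59a* stood at 51.9 and 108 CPM against 26.9 and 37.2 CPM, and *Ly6c2* at 19.5 and 31.1 CPM against 26.9 and 37.5 CPM, so that the plates of the replicates overlapped only for *Ly6c2*. The 122 unnamed BEC wells of replicate 2 were lower than the named classes, at 505 CPM of *Ly6a*, 852 of *Ly6c1* and 770 of *Ly6e*, while the 51 of replicate 1 stood at 1619, 2152 and 1916 CPM.

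Per kb of exon, the order changed. *Ly6a* and *Ly6c1* stood level at 1112 and 1097 mean CPM per kb, a difference within the spread between replicates, and *Ly6e* followed at 437. *Cd59a* came to 31.5 and *Ly6c2* to 10.6 CPM per kb. *Gpihbp1*, the family member that carries lipoprotein lipase to the lumen of capillaries, was the most abundant of the wider family at 332 CPM per kb, and its replicates were far apart, at 1408 and 286 CPM.

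**Figure D2:**
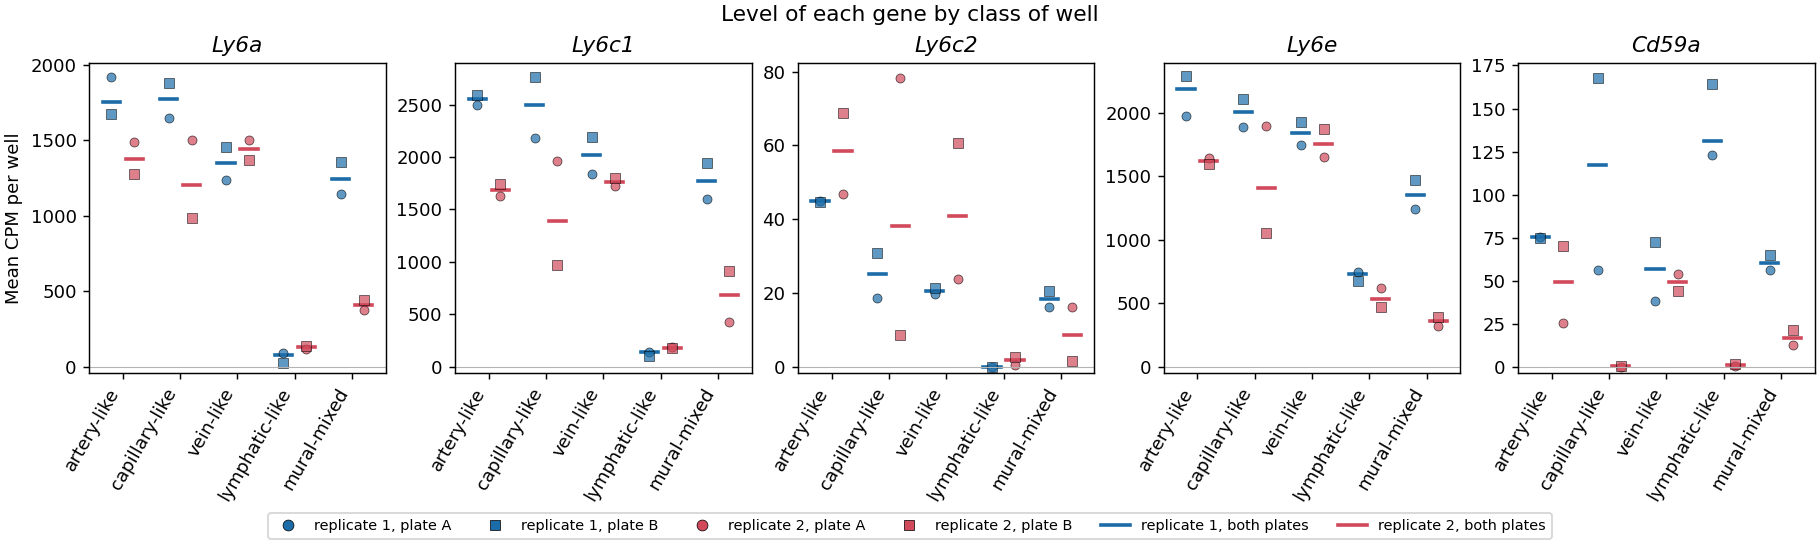
Mean CPM per well (vertical axis, a separate scale for each gene) in the 5 classes of wells. Circles and squares are plates A and B, blue is replicate 1, red is replicate 2, and lines are the means over both plates. *Ly6a* and *Ly6c1* stand at 1206 CPM or more in the artery-like, capillary-like and vein-like wells of each replicate and at 180 CPM or less in lymphatic-like wells.

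The 3 abundant genes were read in nearly every BEC. In replicate 2, where wells without reads occurred, *Ly6c1* had a read in 351 of 363 BEC wells (96.7%, exact binomial 95% interval 94.3 to 98.3%), *Ly6e* in 337 (92.8%, 89.7 to 95.3%) and *Ly6a* in 332 (91.5%, 88.1 to 94.1%). After every well was thinned to 20000 reads, which left out 69 shallower wells, these shares were 92.5%, 93.9% and 89.5% of 294 wells. These intervals cover counting error only.

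*Cd59a* had another distribution, with no read in most wells and a high level in a few. It was read in 157 of 338 BEC wells of replicate 1 (46.4%, 41 to 51.9%) and in 51 of 363 of replicate 2 (14%, 10.6 to 18.1%). The upper quartile was 15.6 CPM and 0 CPM, while the highest wells reached 1472 and 1292 CPM. Thinned to 20000 reads, the shares were 24% of 337 wells and 10.9% of 294 wells, against 30% of 10 and 2.41% of 83 lymphatic-like wells. *Ly6c2* was read in 67.8% of BEC wells in replicate 1 and in 42.7% in replicate 2, most of them at a few reads, with medians of 8.28 and 0 CPM.

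The first comparison asked whether the genes differ between arterial and venous BECs. Counts were summed per replicate and class and tested with edgeR's quasi-likelihood test, with replicate as a block and Benjamini-Hochberg adjustment across every tested gene. *Ly6a* had mean levels of 1756 and 1375 CPM in artery-like wells of replicates 1 and 2, and of 1350 and 1439 CPM in vein-like wells. *Ly6c1* stood at 2559 and 1688 CPM against 2024 and 1761 CPM. The ranges of the classes overlapped for both genes. *Ly6e* stood at 2184 and 1619 CPM in artery-like and at 1842 and 1756 CPM in vein-like wells, which also overlap.

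None of the 5 genes passed the threshold of 0.05, in a comparison in which 2 of 15688 genes did (0.0127%), with 705 at an unadjusted p under 0.05. All 5 fitted log2 fold changes were above 0, with a median of 0.38 beside -0.08 over all genes tested. *Ly6a* was 0.37 higher in artery-like sums (SE 0.29, 95% interval -0.29 to 1.04, adjusted p = 1), *Ly6c1* 0.38 (interval -0.26 to 1.02) and *Ly6e* 0.27 (interval -0.43 to 0.97). For *Cd59a* (0.45, interval -2.98 to 3.88) and *Ly6c2* (0.75, interval -1.38 to 2.89) the intervals were wide on both sides of 0. DESeq2 called 253 genes here and none of the 5 members.

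The second comparison asked whether capillary-like wells differ from the average of both other classes. *Ly6a* stood at 1771 and 1206 CPM in capillary-like wells, *Ly6c1* at 2500 and 1393 CPM and *Ly6e* at 2010 and 1409 CPM. By these means per well, all 3 genes were lowest in this class in replicate 2. In replicate 1 *Ly6a* was highest there and *Ly6c1* and *Ly6e* lay between the artery-like and vein-like wells. In the sums that the fit used, this class was instead highest for all 3 genes in replicate 2. *Ly6a* stood at 1886 CPM beside 1459 and 1332 CPM in artery-like and vein-like sums. *Ly6c1* stood at 2240 beside 1726 and 1536 CPM, and *Ly6e* at 2440 beside 1653 and 1617 CPM. In replicate 1 the capillary-like sums of all 3 genes lay between the artery-like and vein-like sums. The fitted log2 differences were 0.30 for *Ly6a* (SE 0.25, interval -0.27 to 0.87), 0.30 for *Ly6c1* (SE 0.24, interval -0.25 to 0.84) and 0.28 for *Ly6e* (SE 0.26, interval -0.33 to 0.88). edgeR called 0 of 15688 genes (0%) in this comparison, with 713 at an unadjusted p under 0.05, and DESeq2 called 254. The median over the 5 members was 0.28 beside -0.15 over all genes. Weighting wells equally rather than by depth, with limma on mean CPM, turned *Ly6a*, *Ly6c1* and *Ly6e* to -0.01, -0.09 and -0.13, so no direction can be given.

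*Cd59a* went in opposite directions in the replicates. Capillary-like wells held 117 CPM in replicate 1, above the 75.2 CPM of artery-like and the 56.5 CPM of vein-like wells. In replicate 2 they held 0.191 CPM, from 1 read in 33 wells, beside 49.0 and 49.1 CPM. The fold change on the log2 scale was 1.03 with replicate 1 alone and -6.60 with replicate 2 alone, and -0.87 in the fit (SE 1.68, adjusted p = 0.95). Capillary-like wells had a median depth of 136956.5 reads in replicate 1 and of 49592 in replicate 2, and the part of depth in this was not tested. *Gpihbp1* was higher in capillary-like wells in both replicates, at 2158 and 525 CPM beside 1280 and 150 CPM in artery-like and 765 and 277 CPM in vein-like wells, with a log2 difference of 1.48 (SE 0.40, unadjusted p = 0.00647, adjusted p = 0.904).

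**Figure D3:**
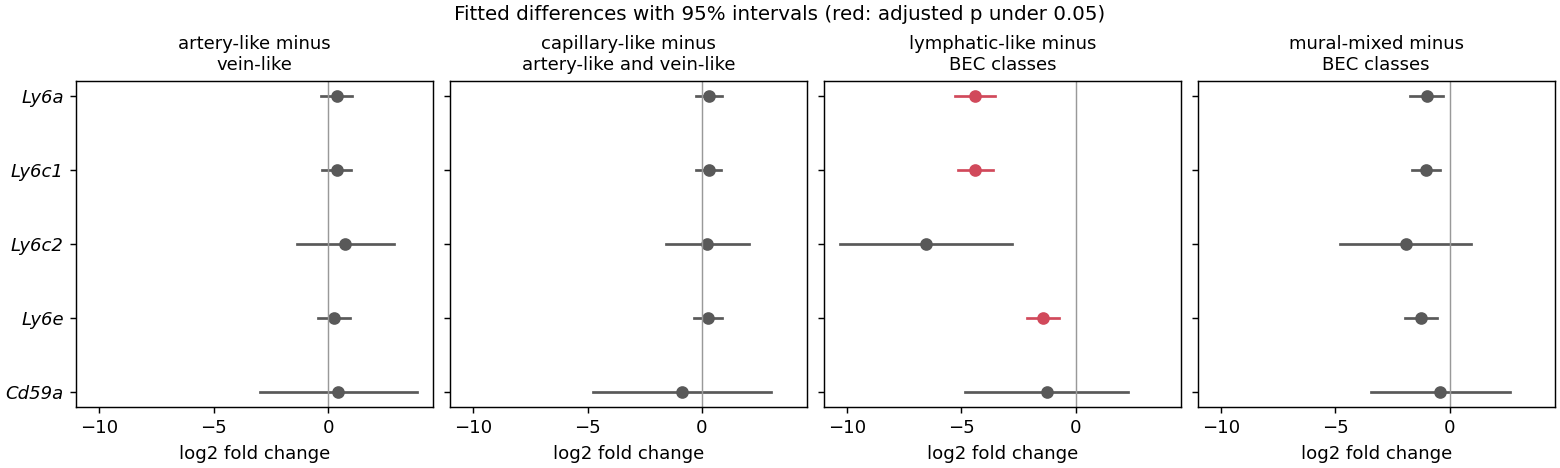
Log2 fold changes (horizontal axis) from edgeR for the 5 genes in the 4 comparisons, with 95% intervals as lines. *Ly6a*, *Ly6c1* and *Ly6e* in lymphatic-like against BEC sums are drawn in red because their adjusted p is under 0.05. The intervals in both comparisons among BEC classes include 0.

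The third comparison, of lymphatic-like wells with the mean of the 3 BEC classes, gave the clear differences. *Ly6a* fell 21.3-fold and *Ly6c1* 21.1-fold in lymphatic-like wells, *Ly6e* fell 2.73-fold, and *Ly6c2* was close to 0. *Ly6a* stood at 75.5 CPM in the 10 lymphatic-like wells of replicate 1 and at 128 CPM in the 114 of replicate 2. On the plates it stood at 88.3 (8 wells), 24.2 (2 wells), 115 (45 wells) and 136 CPM (69 wells), all below the lowest BEC plate at 1014 CPM. *Ly6c1* stood at 143, 102, 184 and 177 CPM on the same plates, against 1394 CPM or more in BECs. The plates of both classes do not overlap for either gene.

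The log2 fold change was -4.41 for *Ly6a* (SE 0.40, interval -5.30 to -3.52, edgeR adjusted p = 0.00029). It was -4.40 for *Ly6c1* (SE 0.34, interval -5.16 to -3.64, adjusted p = 0.000116). In this comparison 423 of 17975 genes were called (2.35%), 251 higher and 172 lower in lymphatic-like sums. The balance depended on the processing. At a BEC limit of 10 CPM, which left 1 lymphatic-like well in replicate 1, 300 were higher and 44 lower. With limma on mean CPM, 229 were higher and 298 lower. Of the 5 genes, 3 were called, all lower, and the median over the 5 was -4.40 beside -0.13 over all genes. Each replicate alone gave values of the same size, at -4.70 and -4.19 for *Ly6a* and at -4.24 and -4.54 for *Ly6c1*. In wells of 50000 to 200000 reads, which brought the classes closer in depth, the values were -4.46 and -5.17, and both calls held.

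*Ly6e* kept more of its level. It stood at 748, 676, 622 and 469 CPM on the 4 plates in lymphatic-like wells, all below the lowest BEC plate at 1326 CPM. The log2 fold change was -1.45 (SE 0.32, interval -2.15 to -0.75, edgeR adjusted p = 0.0403). This call was close to the threshold and held in 8 of 13 alternatives, over which the adjusted p ran from 0.000164 to 0.241. DESeq2 gave -1.29 with an adjusted p of 0.136, and without the replicate block edgeR gave -1.39 with an adjusted p of 0.0983. The interval for *Ly6e* does not meet those of *Ly6a* and *Ly6c1*, and the difference between the genes was not itself tested.

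*Ly6c2* had 0 reads among 1552995 in the lymphatic-like wells of replicate 1, where a count of 0 allows up to 1.93 CPM, against 23.7 CPM in the summed BEC wells. That places it at least 12.3-fold lower there by counting error alone, with reads taken as independent of each other. In replicate 2 it had 7 reads in 6 of 114 wells (0.815 CPM of the sum) against 47.8 CPM in BECs. The fitted log2 fold change of -6.54 (SE 1.70) had an adjusted p of 0.0918 and passed in 4 of 13 alternatives, at adjusted p-values from 9.92e-06 to 0.543 over all. *Cd59a* had no common direction. It stood at 131 CPM in lymphatic-like wells of replicate 1, with reads in 6 of 10 wells, and at 0.997 CPM in those of replicate 2, with reads in 8 of 114, and its log2 fold change was -1.28 (SE 1.61, adjusted p = 0.831).

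**Figure D4:**
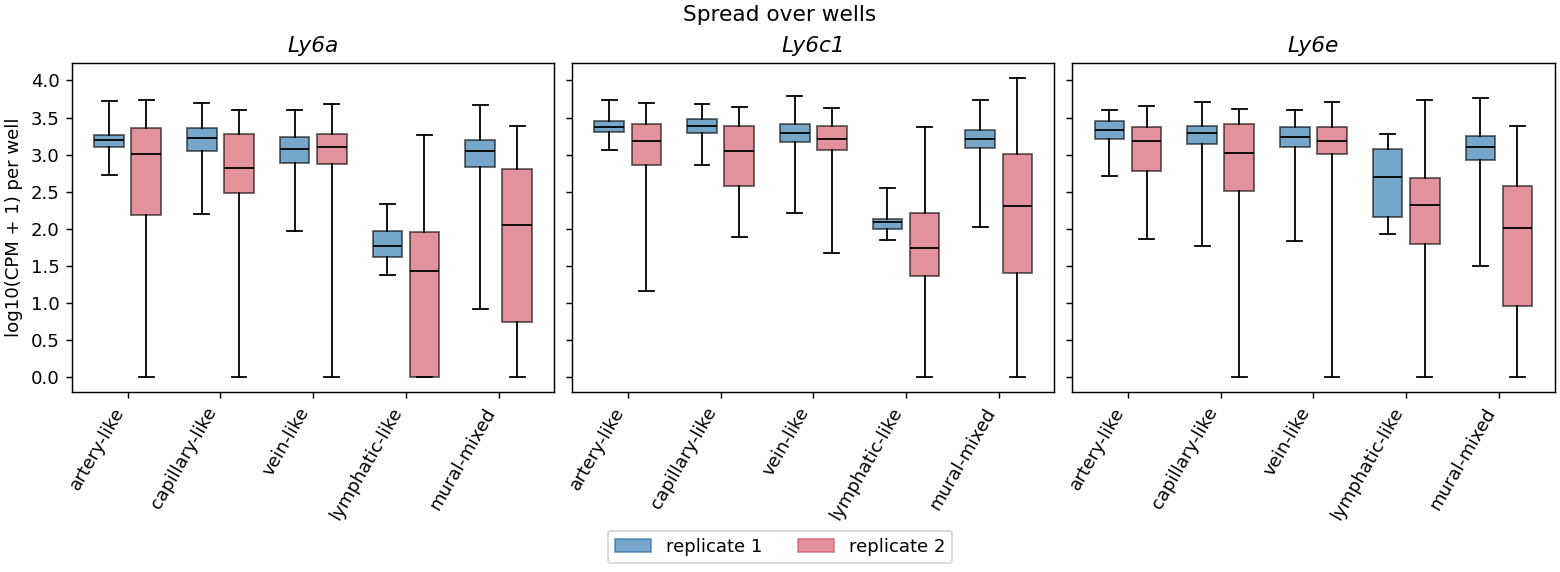
Levels of *Ly6a*, *Ly6c1* and *Ly6e* over single wells, as log10(CPM + 1) on the vertical axis, by class and replicate. Boxes are quartiles with the median as a black line, and whiskers reach the lowest and highest well. Median lymphatic-like wells stand at 56.9 and 26.2 CPM of *Ly6a* and at 641 and 205 CPM of *Ly6e*.

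Single lymphatic-like wells of replicate 2 ranged from 0 to 1856 CPM of *Ly6a* (median 26.2), from 0 to 2357 CPM of *Ly6c1* (median 53.2) and from 0 to 5389 CPM of *Ly6e* (median 205). Most wells were thus far below the mean, and a few were at the level of BECs. At 20000 reads, 35 of 83 wells had a read of *Ly6a* (42.2%, 31.4 to 53.5%), 38 of *Ly6c1* (45.8%, 34.8 to 57.1%) and 69 of *Ly6e* (83.1%, 73.3 to 90.5%). The same shares in BECs were 89.5%, 92.5% and 93.9%. Without thinning, 72.8%, 90.4% and 93% of the lymphatic-like wells of replicate 2 had a read of *Ly6a*, *Ly6c1* and *Ly6e*, so that for *Ly6c1* and *Ly6e* the unthinned share was close to that of BECs. Of *Ly6c2*, 0 of 83 wells had a read at that depth, which by the exact interval allows a share of up to 4.35%.

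The levels that remained in lymphatic-like wells were set beside those of markers of the BEC classes. *Ly6a* kept 4.74% of its BEC level in replicate 1 and 11.8% in replicate 2, *Ly6c1* kept 5.93% and 12.8%, and *Ly6e* 37.6% and 39.0%. The 11 capillary markers kept a median of 4.55% and 18.3% (ranges 0.426 to 642% and 2.61 to 514%). The 11 vein markers kept a median of 6.02% and 15.3%, and the 13 artery markers 52.4% and 46.6%. The part of RNA from other cells in these residual levels was not tested. The lymphatic-like class itself rests on *Prox1*, *Lyve1* and related genes. The summed level of 8 lymphatic markers was 7752 and 12273 CPM there, against 73.6 to 82.3 CPM in the 3 BEC classes of replicate 1 and 130 to 406 CPM in those of replicate 2.

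The fourth comparison set mural-mixed wells, which hold endothelial and pericyte transcripts, against the BEC classes. All 5 genes were lower in mural-mixed wells by their fitted values, and none passed the threshold, in a comparison in which 133 of 17975 genes were called (0.74%), all higher in mural-mixed sums. *Ly6c1* stood at 1767 CPM in replicate 1 and 682 CPM in replicate 2, *Ly6a* at 1244 and 411 CPM and *Ly6e* at 1352 and 359 CPM. On the plates, *Ly6e* stood at 1241 and 1472 CPM against 320 and 394 CPM, so the replicates differed far more from each other than did their plates. The log2 fold changes were -1.01 for *Ly6a* (SE 0.32, edgeR adjusted p = 0.233), -1.02 for *Ly6c1* (SE 0.28, adjusted p = 0.135) and -1.26 for *Ly6e* (SE 0.31, adjusted p = 0.102), and their 95% intervals lay below 0. The median over the 5 genes was -1.02 beside 0.06 over all genes.

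The level of the family in mural-mixed wells was set beside that of endothelial genes. In replicate 1 the 5 genes kept 69.3 to 78.2% of their BEC level, and *Pecam1*, *Cdh5* and *Kdr* kept 67.0%, 63.9% and 70.2%. In replicate 2 the 5 genes kept 26.2 to 52.6%, and the 3 endothelial genes 33.1%, 37.1% and 23.3%. The means of replicate 2 cover very different wells. For example, 1 mural-mixed well of 137872 reads held 2408 CPM of *Ly6a*, and 1 of 254560 reads held 3.93 CPM. Markers of the BEC classes were less uniform, with medians of 66.2% and 58.8% for the capillary, 53% and 12.5% for the vein and 82.7% and 29.3% for the artery markers. The summed level of 11 mural markers was 9287 and 8397 CPM in mural-mixed wells, against 1370 and 577 CPM in BECs. Whether these wells held 2 cells was not tested. In 39 mural wells of replicate 2 with reads of fewer than 2 of the 3 endothelial genes, *Ly6a* averaged 150 CPM, *Ly6c1* 142 and *Ly6e* 106 CPM.

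The 2 Ly6C genes were very unequal in dermal BECs. *Ly6c2* made up 1.14% of their joint reads in replicate 1 (1306 reads beside 113074 of *Ly6c1*, exact interval 1.08 to 1.21%) and 2.95% in replicate 2 (2120 beside 69814, interval 2.82 to 3.07%). These intervals cover counting error only, and neither the clustering of reads in a few wells nor their exchange between the paralogs. These shares stood between 1.03 and 1.86% in the artery-like, capillary-like and vein-like wells of replicate 1 and between 2.85 and 3.65% in those of replicate 2. A few wells carried much of the *Ly6c2* signal. In replicate 2, the 5 wells with the most reads held 52.4% of all *Ly6c2* reads of BECs, and in replicate 1 24.7%. At least 100 CPM of *Ly6c2* occurred in 19 of 338 BEC wells (5.62%) and in 16 of 363 (4.41%), up to 969 and 1268 CPM.

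Wells with at least 100 CPM of *Ly6c2* also carried *Ly6c1*. Its mean was 2397 CPM beside 2270 CPM in the other BEC wells of replicate 1, and 2130 CPM beside 1370 CPM in replicate 2. In replicate 2 the other BEC wells included all 122 unnamed wells, at 852 CPM of *Ly6c1*. Within the named classes of replicate 2 the means were 2280 beside 1630 CPM (artery-like), 2749 (1 well) beside 1350 CPM (capillary-like) and 1870 beside 1754 CPM (vein-like). Monocytes also carry Ly6C. The part of leukocyte RNA in the wells with at least 100 CPM of *Ly6c2* was not tested, in a sort against CD45 and a gate on *Ptprc*. Reads of *Lyz2* occurred in 2 of the 19 wells and in 1 of the 16, reads of *Tyrobp* in 1 and in 0, reads of *Fcer1g* in 0 and in 2, and reads of *Cd52* and *Laptm5* in 0 wells of either replicate. Of 6 leukocyte markers, the summed level in BECs was 5.14 CPM in replicate 1 and 123 CPM in replicate 2. In replicate 2 it was 348 CPM in the unnamed wells and 3.92 to 17.7 CPM in the named classes. Adding the counts of *Ly6c1* and *Ly6c2* together, which removes the exchange of reads between them, left the lymphatic difference at -4.43 and its call in place.

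Over single BEC wells, *Ly6a*, *Ly6c1* and *Ly6e* varied together, whereas *Cd59a* did not vary with them. The Pearson correlation of log2(CPM + 1) was 0.61 and 0.56 between *Ly6a* and *Ly6c1* in replicates 1 and 2, 0.48 and 0.49 between *Ly6a* and *Ly6e*, and 0.58 and 0.42 between *Ly6c1* and *Ly6e*. After thinning to 20000 reads the values were 0.52 and 0.61, 0.43 and 0.47, and 0.42 and 0.43. *Ly6a* and *Ly6c1* share identical windows, whereas *Ly6e* shares none with either. *Cd59a* stayed between -0.04 and 0.09 with the other 4 genes in all of these settings apart from -0.06 with *Ly6c2* in thinned wells of replicate 2. Wells of a plate share libraries, depth and class makeup, so these are descriptions over 338 and 363 wells.

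Among 6885 protein-coding genes read in at least 10% of BEC wells of both replicates, ranked by the lower of the 2 correlations, the genes most like *Ly6a* were *Ly6c1*, *Ly6e* and *Ly6c2* (0.37 and 0.40, but 0.11 and 0.18 after thinning). The genes most like *Ly6c1* were *Ly6a*, *Cst3* (0.49 and 0.55), which encodes the protease inhibitor cystatin C, and *Cav1* (0.42 and 0.43), which encodes the main protein of caveolae. *Ly6e* was most like *Ly6a*, *Ly6c1* and *B2m* (0.41 and 0.42), the light chain of class I histocompatibility molecules. *Ly6c2* was most like *Ly6a*, *Ly6c1* and *Fam166a* (0.25 and 0.24). Its correlation with *Ly6c1*, with which it shares 379 identical windows, went from 0.37 and 0.40 to 0.17 and 0.16 after thinning. *Cd59a* had no close partner, with *Rrp8* at 0.19 in both replicates, *Aff4* at 0.17 and 0.16 and *Fam133b* at 0.16.

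Of 35 further members of the Ly6/uPAR family, 33 were in the tables, and 10 had enough counts to test among BEC classes and 14 in the comparisons with lymphatic-like and mural-mixed wells. Among BEC classes none was called. In lymphatic-like sums *Gpihbp1* fell 8.02-fold (SE 0.66 on the log2 scale, edgeR adjusted p = 0.0432), in a comparison in which 2.35% of all genes were called. The fall was uneven. Lymphatic-like wells held 65.9 and 94.4 CPM of *Gpihbp1* in replicates 1 and 2, or 4.68% and 33.1% of its level over all BEC wells. *Lypd6*, a modulator of acetylcholine receptors and Wnt signalling, was read in 30% of the 10 lymphatic-like wells of replicate 1 and in 6.14% of those of replicate 2, with means of 143 and 46.6 CPM. Over all BEC wells it was read in 5.33% and 3.58%, with means of 6.49 and 17.4 CPM, so the means of replicate 2 were closer than those of replicate 1. Among BEC classes it had too few counts for a test, and its fit in lymphatic-like sums is not reported here. *Plaur*, the urokinase receptor, averaged 55.7 and 42.7 CPM in BECs and 431 and 70.2 CPM in lymphatic-like wells (log2 fold change 2.22, SE 0.97, adjusted p = 0.356). In mural-mixed sums none of the 14 was called.

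Other regulators of complement were described beside *Cd59a*. Of 8 listed, 7 could be tested, none was called among BEC classes and 1 was called in lymphatic-like sums, where it was higher, beside 0.0127%, 0% and 2.35% of all genes in these comparisons, so the counts say little about the list. *Serping1*, the C1 inhibitor, averaged 59.3 and 188 CPM in BECs, 342 and 178 CPM in lymphatic-like wells and 879 and 1388 CPM in mural-mixed wells. In replicate 2 the mean over all BEC wells was thus above that of lymphatic-like wells, while the sums of the named classes, which the fit used, stood at 28.3 to 44.5 CPM beside 327 CPM. Its log2 fold change was 2.91 in lymphatic-like sums (SE 0.43, edgeR adjusted p = 0.00625) and 5.09 in mural-mixed sums (SE 0.45, adjusted p = 0.00182). In mural-mixed sums *Vtn*, vitronectin, rose by 6.48 (SE 0.91, edgeR adjusted p = 0.0116). *Clu*, clusterin, was the most abundant of the list in BECs at 423 and 929 CPM, and *Cr1l*, a membrane regulator of complement activation, stood at 199 and 229 CPM. Both were above *Cd59a* in CPM, but per kb of exon *Cr1l* was below it, at 20.7 beside 31.5 CPM per kb.

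The genes that attach and remodel GPI anchors had low levels. Of 10 listed, 9 were in the tables, with 8 tested among BEC classes and 9 in the other comparisons, and none was called where 0 to 2.35% of all genes were. *Gpaa1*, *Pigk* and *Pigs*, subunits of the transamidase that adds the anchor, averaged 75.7, 64.3 and 53.7 CPM over the replicates in BECs, and *Pgap2*, which acts in remodelling, 36.5 CPM.

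Duplicated reads were removed before counting, and a short gene offers few start positions, but whether this limited the counts of the abundant members was not tested. The highest count in a BEC well was 743 and 841 for *Ly6a* in replicates 1 and 2, or 30.8% and 34.9% of the 2410 start positions that its exons offer on both strands, 700 and 709 for *Ly6c1* (20.9% and 21.1% of 3354), and 872 and 910 for *Ly6e* (11.5% and 12% of 7568). In replicate 1, mean *Ly6c1* went from 2762 CPM in the shallowest of 3 equal groups of BEC wells (up to 120286 reads) to 1691 CPM in the deepest (over 182615 reads), and *Ly6a* went from 1744 to 1345 CPM. In replicate 2 the shallowest group (up to 45208 reads) had the lowest *Ly6a*, at 401 CPM, beside 1583 and 1279 CPM in the deeper groups. CPM of *Ly6a* and *Ly6c1* was thus not independent of depth. From the shallowest to the middle group the replicates went in opposite directions. From the middle to the deepest group both genes fell in both replicates, *Ly6c1* from 2378 to 1691 CPM and from 1894 to 1565 CPM.

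**Figure D5:**
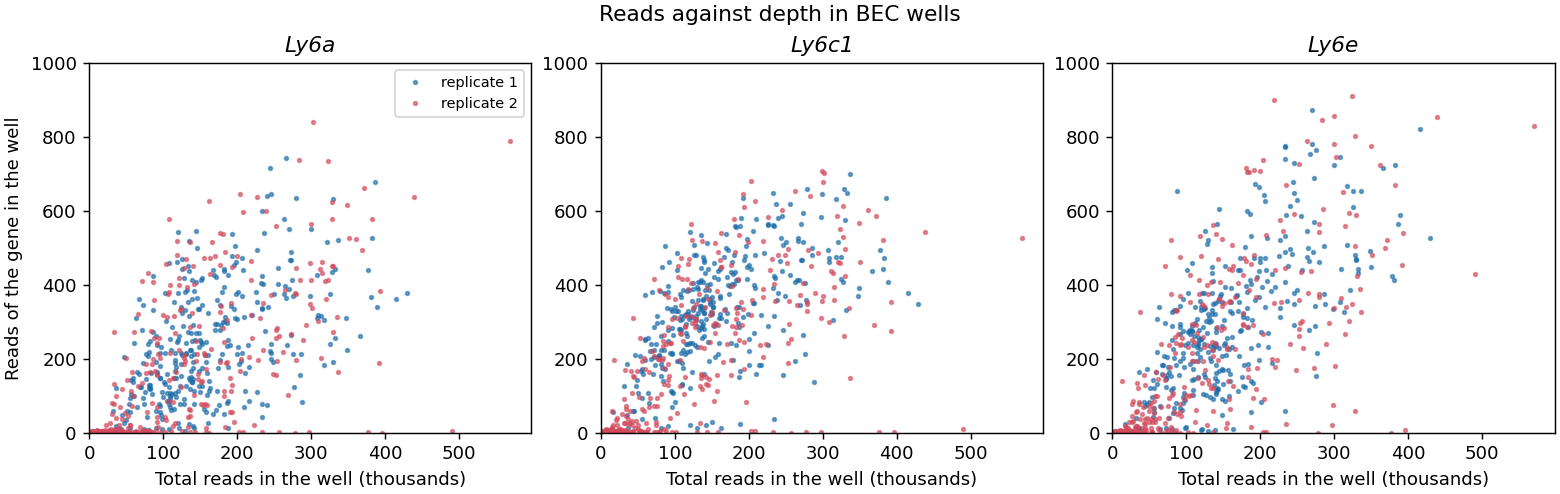
Reads of *Ly6a*, *Ly6c1* and *Ly6e* (vertical axis) against all reads of the well (horizontal axis, in units of 1000 reads) in BEC wells of replicate 1 (blue) and replicate 2 (red). Counts stay at or below 841, 709 and 910 reads.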

How the data were processed

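The authors deposited raw counts, one value for each gene in each well. Per the labels and the study's methods, Smart-seq2 libraries were sequenced as single 50-base reads and aligned to mm10 (GRCm38) with TopHat2 2.1.1. Duplicates were taken out with SAMtools 0.1.18, and Subread 1.4.6-p5 assigned reads to genes. The annotation release and the treatment of reads with several matches are not given in the sources used here. Spike-ins stayed out of totals, and 46005 of 46517 identifiers matched a symbol.

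Wells needed 600 counts and 500 to 8000 genes. Doublets were not called beyond that limit. BEC wells were normalised with scran 1.30.0 and clustered with leidenalg 0.10.2 on 1000 variable genes, leaving out the Ly6 family and 35 dissociation genes, at resolution 0.6. Clusters were named by the marker list with most members raised 1.25-fold or more in each replicate. The members, lists, gates and tests were chosen with earlier results of these data known. The sequence windows and coding stretches come from GENCODE vM21 transcripts.

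Sums of 5 or more wells per class and replicate were tested with edgeR 4.0.16 (TMM, genes with 10 counts in 2 sums, 2 or 4 residual degrees of freedom). At the BEC limit of 10 CPM this minimum was not applied. Sums of replicate 1 there held 1 lymphatic-like, 2 artery-like, 3 capillary-like and 7 vein-like wells. The replicate block follows the design, since the wells of a replicate share a cell pool, and deviations of same-numbered sums correlated at 0.127, 0.150 and 0.125. Whether the replicates are separate pools is not stated. With the block, p-values rest on how far the differences between classes disagreed between these 2 replicates, with information shared across genes. They do not measure a spread over mice. Alternatives used DESeq2 1.42.0 and limma 3.58.1, and the fit code was tested on simulated data. With the spread estimated from these data, 23.5% of 200 changed genes were recovered between artery-like and vein-like sums. In lymphatic-like sums 33% were recovered, so a gene that was not called may still differ. Named genes were the members, the 3 genes most like each, list genes past the threshold and otherwise the 4 most abundant of each list. One result of the complement list is not reported here. *Lyz2*, *Tyrobp*, *Fcer1g*, *Cd52* and *Laptm5* were chosen after their values were seen. R 4.3.3 and Python 3.11.15 were used.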

Additional observations from a re-analysis of the deposited data

Results flagged for a closer look

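Over the 4 plates, 30 sets of mean levels of a gene in a class were examined for a plate far from the other 3, and 4 stood apart, where chance flags about 1 in 20. *Ly6c2* stood apart on plate B of replicate 2 in 3 classes. It was at 68.9 CPM in 48 artery-like wells (44.7 to 46.9 CPM on the other plates) and at 60.7 CPM in 55 vein-like wells (19.6 to 23.7 CPM). In 69 lymphatic-like wells it was at 2.56 CPM (0 to 0.314 CPM). That value is near the floor, since all lymphatic-like wells of replicate 2 together held 7 reads of *Ly6c2*. In capillary-like wells the same plate was the lowest, at 8.59 CPM beside 78.4 CPM on plate A of replicate 2. *Cd59a* was low on plate A of replicate 2 in 42 artery-like wells, at 25.1 CPM beside 70 to 75.6 CPM. Both genes carry much of their signal in a few wells.

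The 39 mural wells with few endothelial genes entered no comparison, and yet held *Ly6a*, *Ly6c1* and *Ly6e* at means of 150, 142 and 106 CPM. Their medians were 10.2, 16.7 and 11.9 CPM, so most of these wells were far below the mean.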

How the results depend on the processing

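Depth, 2 replicates and 10 lymphatic-like wells in replicate 1 limit these results. *Ly6a* and *Ly6c1* stayed called and lower in lymphatic-like sums in 13 of 13 and 14 of 14 tested alternatives, at -4.75 to -3.89 and at -5.17 to -3.63. Wells of 50000 to 200000 reads were an alternative chosen after seeing the data. The lymphatic comparison was not run on plate B, with 2 wells in replicate 1. The BEC limit of 10 CPM was run although it left 1 lymphatic-like, 2 artery-like and 3 capillary-like wells in replicate 1. Where a value moved, the cause was not tested.

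Without the replicate block, 0 genes were called between artery-like and vein-like sums and 296 in mural-mixed sums, *Ly6e* in lymphatic-like sums gave -1.39 (adjusted p = 0.0983) and *Cd59a* in capillary-like sums 0.03. In lymphatic-like sums 469 genes were called (301 higher, 168 lower). Of the 5 members, no other changed its call without the block.

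Genes called between artery-like and vein-like sums numbered 15 with the BEC limit at 10 CPM, 7 in thinned wells, 253 with DESeq2, 38 without a low-count filter, 1 in the fit of all sums, and 0 with the limit at 300 CPM, with all 3 BEC genes required, with classes from marker scores, in wells of 50000 to 200000 reads and with limma on mean CPM. In capillary-like sums they numbered 7 at 10 CPM, 4 thinned, 3 on plate B, 254 with DESeq2 and 70 unfiltered. In lymphatic-like sums they numbered 219 on plate A, 1798 with DESeq2 (848 higher, 950 lower) and 741 unfiltered, and DESeq2's size factors moved the median of all genes from -0.13 to -0.01. In mural-mixed sums they numbered 699 at 10 CPM, 67 at 300 CPM, 53 with all 3 genes, 47 by scores, 298 thinned, 247 with DESeq2's size factors, 765 with DESeq2, 538 unfiltered and 202 with limma.

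At 10 CPM, with 1 lymphatic-like well in replicate 1, *Ly6e* in lymphatic-like sums missed the threshold (-1.22). It also missed there on plate A (-1.26), with DESeq2's size factors and with DESeq2 (-1.29 each). *Ly6c2* passed there thinned (-9.52), with DESeq2 (-6.48), unfiltered (-6.60) and with limma (-4.50). Unfiltered, *Ly6c1* (-0.98) and *Ly6e* (-1.22) passed in mural-mixed sums. Directions turned for *Ly6c2* between artery-like and vein-like sums (-0.45 at 10 CPM, -0.01 at 300 CPM). In capillary-like sums they turned with limma for *Ly6a* (-0.01), *Ly6c1* (-0.09), *Ly6c2* (-0.31) and *Ly6e* (-0.13), at 10 CPM for *Ly6c2* (-1.78) and *Ly6e* (-0.04), on plate B for *Ly6c2* (-0.81), and for *Cd59a* at 300 CPM (0.03) and by scores (0.30). In mural-mixed sums *Ly6c2* (1.5) and *Cd59a* (0.33) turned at 10 CPM, where the median of all genes was 1.51. With scran size factors BEC levels were 899 (*Ly6a*), 1141 (*Ly6e*) and 19.8 (*Ly6c2*), and *Ly6c2* was 20.8 CPM at 10 CPM, 23.2 on plate A and 34.3 on plate B.

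With 1 replicate left out there is no test. In capillary-like sums *Cd59a* ran from -6.60 to 1.03 and *Ly6e* from -0.07 to 0.58. In lymphatic-like sums *Cd59a* ran from -3.37 to 0.43 and *Ly6e* from -1.79 to -1.09. In mural-mixed sums *Ly6a* ran from -1.63 to -0.54, *Ly6c1* from -1.58 to -0.54, *Ly6e* from -1.88 to -0.71, *Cd59a* from -0.38 to 1.04, and *Ly6c2* from -4.35 to -0.80.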
